A study of Mus musculus with 25 samples.

Results

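Of the 20437 nucleotides that the authors called as peaks in the piCLIP experiment, 8525 (41.7%) had no nucleotide of the WT iCLIP peak list within 30 nt on the same strand. These 8525 nucleotides, called unmatched here, are described below beside the other 11912, called matched. They were chosen by comparing the coordinates of the 2 peak lists on mouse genome build mm9, so their lack of a nearby WT iCLIP peak is how they were selected and not a result.

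SRSF7 is a serine/arginine-rich protein with an RNA recognition motif and a zinc knuckle. Proteins of this family act in pre-mRNA splicing in the nucleus, and several of them, SRSF7 included, move to the cytoplasm with mRNA and can be found with ribosomes. In iCLIP, UV light links protein to RNA, the complex is immunoprecipitated, and the end of each cDNA marks the linked nucleotide. A monosome is a single ribosome on an mRNA, and a polysome is an mRNA that carries several.

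All 25 libraries came from P19 cells, a mouse embryonal carcinoma line. The 6 piCLIP libraries are from cells overexpressing SRSF7-GFP (the labels write OE), with 2 immunoprecipitates (IP) and 1 IgG library from monosomal fractions and the same from polysomal fractions. They are called mono and poly below. By title the control libraries are IgG, but the antibody given for them in the labels is anti-EGFP, which leaves their role as a control unsettled. The 19 iCLIP libraries comprise anti-EGFP libraries of SRSF7-GFP OE cells (called WT, 3), of SRSF7mutZn-GFP (2) and of SRSF7D27aa-GFP (2), each with 1 library labelled noUV. They further comprise anti-SRSF7 libraries with the titles GFP_OE (2), endo_OE (2) and RRM_OE (2), all labelled SRSF7-GFP OE, endo_WT of WT cells (1), a GFP_OE library without UV (1) and a library without antibody (1). No source used here gives the promoter or the clonal origin of the GFP lines. The design text speaks of biological replicates for the tagged proteins but not for the fractions, so p-values for mono and poly measure only the spread between these libraries. The titles of the 2 mutZn libraries carry the same barcode, as do those of the 2 D27aa libraries. Their p-values are therefore read in the same way. No RNA abundance was measured alongside, so more RNA at a site and more crosslinking per RNA cannot be told apart.

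The mono IP libraries held 52553 and 32015 crosslink events (cDNA counts), the poly IP libraries 23145 and 18357, and the IgG libraries 1153 (mono) and 11177 (poly). The iCLIP libraries ranged from 1789 events without UV to 11782376 for mutZn replicate 3. All 6 piCLIP libraries carry 1 sequencing identifier in their headers. The 19 iCLIP libraries carry 5 others and another result type, so piCLIP and iCLIP cannot be told apart from sequencing run and result type. At all 20437 piCLIP peak nucleotides the deposited peak score equalled the sum of the 4 IP libraries. The WT peak list did not follow its 3 libraries in this way. Its header names 4 result numbers, only 17.4% of its 2045481 nucleotides had a score equal to the sum of the 3 WT libraries, and 68.0% had no event in them. A nucleotide can therefore count as matched through events that were not analysed here, and WT event counts below are given apart from the WT peak list.

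Most unmatched nucleotides lay far from any WT peak. The median distance to the nearest one was 1410 nt, and 4768 (55.9%) lay over 1000 nt away. By distance, 866 lay at 31 to 100 nt, 2891 at over 100 and up to 1000 nt, 2455 at over 1000 and up to 10000 nt, and 2313 beyond 10000 nt. Of the matched nucleotides, 6684 (56.1%) were themselves WT peak nucleotides. Close to the 30 nt limit the mean piCLIP scores were similar. The 115 unmatched nucleotides at 31 to 35 nt had a mean score of 1.75 cDNAs and a mean of 2.51 WT events within 30 nt. The 160 matched nucleotides at 26 to 30 nt had a mean score of 1.82 cDNAs and a mean of 3.58 WT events. A WT peak lay within 30 nt on the opposite strand of 17 unmatched nucleotides (0.199%) and 95 matched ones (0.798%).

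**Figure D1:**
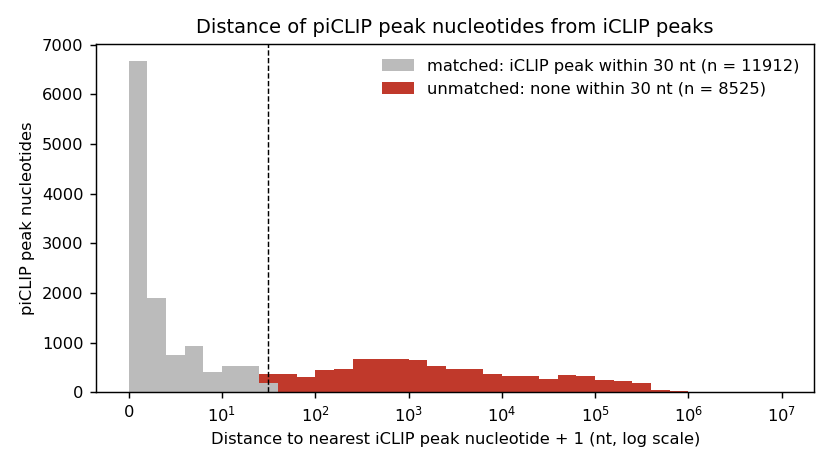
Number of piCLIP peak nucleotides (vertical axis) by distance to the nearest WT iCLIP peak nucleotide on the same strand (horizontal axis, distance + 1 in nt, log scale), with matched nucleotides in grey and unmatched ones in red, stacked. The dashed line marks the 30 nt limit, and the 8525 unmatched nucleotides spread over several orders of magnitude around a median of 1410 nt.

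Both kinds of nucleotide were weakly covered, with mean scores of 2.12 cDNAs for unmatched and 2.25 for matched ones and a median of 1 in each. Fewer unmatched than matched nucleotides were seen in more than 1 library. A score of 1 cDNA was found at 50.3% of unmatched nucleotides (59.4% of matched ones), and the highest score of an unmatched one was 199 cDNAs. Of the 8525, 91.5% had events in only 1 of the 4 IP libraries, against 76.7% of the matched nucleotides, and 43 had events in all 4. This was not only a matter of scores of 1. Among the 1819 unmatched nucleotides with a score of at least 3, 1431 (78.7%) had all their events in 1 library, 599 of them in poly replicate 2. The share among matched nucleotides with such scores was 28.2%, with 152 in poly replicate 2. Events came from mono libraries alone at 58.9% of unmatched nucleotides, from poly libraries alone at 35.1%, and from both at 6.03%. The corresponding shares of matched nucleotides were 67.1%, 17.9% and 15.04%.

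The loci were scattered over the genome. Unmatched nucleotides were split evenly by strand (4275 plus, 4250 minus). Their share of all piCLIP peak nucleotides on a chromosome was lowest on chromosome 17 (374 unmatched, 23.2%) and, among chromosomes with over 100 of them, highest on chromosome 14 (350 unmatched, 54.7%). In windows of 5000 nt on 1 strand, 4696 windows held an unmatched nucleotide and 2900 of these (61.8%) held exactly 1. No matched nucleotide lay in 4395 (93.6%) of those windows. Windows with at least 10 unmatched nucleotides numbered 55 and held 10.5% of them, whereas 62.9% of the matched nucleotides lay in windows with at least 10 of their own kind.

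Peak nucleotides no more than 30 nt apart on a strand were joined into 7481 clusters. Of these, 4899 held only unmatched nucleotides, 2514 only matched ones and 68 both, the last with 166 unmatched nucleotides. The unmatched clusters were small. A lone nucleotide made up 61.6% of them (29.6% of matched clusters), 76.8% had events in 1 IP library only (40.3% of matched), and 194 held at least 5 peak nucleotides. With the 15 nt on either side counted, 1922 (39.2%) had no event in any of the 19 iCLIP libraries and 3508 (71.6%) had none in the 3 WT libraries. Of the matched clusters, 73 (2.90%) and 297 (11.8%) had none. This contrast is fixed in part by the rule. An event of an IgG library lay in 204 unmatched clusters (4.16%), against 389 matched clusters (15.5%). At least 10 IP events were reached by 136 unmatched clusters and 523 matched ones. At this depth the IgG shares were alike: 59 of the 136 (43.4%) and 42.8% of the 523 held an IgG event. Among the 136 this share differed by shape, as given next.

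These 136 well covered clusters were of different shapes. A set of 49 had only 1 or 2 peak nucleotides and a median width of 1 nt. Another set of 71 had at least 5 peak nucleotides and a median width of 20 nt, and 16 lay between. The division by number of peak nucleotides was made after values had been seen. The narrow clusters held 7935 and 3623 CPM (events per 1000000 events of the library) in the mono IP libraries. In the poly IP libraries they held 16245 and 38459 CPM, so both poly values were above both mono values. The broad clusters held 12901 and 14056 CPM in mono and 17628 and 14763 CPM in poly. This order rested on the largest cluster, on chromosome 11: without it the broad clusters held 11950 and 13775 CPM in mono and 8166 and 13129 CPM in poly, so that the fractions overlapped. Most single broad clusters were lower in poly, as given with the fold changes further on. In the mono IgG library the narrow clusters took up 185 of 1153 events (16.05%) and the broad ones 23 events (1.99%). In the poly IgG library they took up 173 (1.55%) and 95 (0.850%) of 11177 events. The narrow clusters thus made up a larger part of the mono IgG library than of any IP library. An event of an IgG library lay in 31 of the 49 narrow clusters, 8 of the 16 between and 20 of the 71 broad ones. No event in any iCLIP library was found for 30 of the 49 narrow clusters and 16 of the 71 broad ones.

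The 12 unmatched clusters with the most IP events were mostly of the narrow kind, with 1 or 2 peak nucleotides in 8 of them. Together they held 1495 IP events, and over 80% of the events lay at 1 nucleotide in 8 of the 12. The largest lay on the minus strand at chr11:62054000-62054004. It had 50 and 9 events in mono replicates 1 and 2, 219 and 30 in poly replicates 1 and 2, 4 in mono IgG and 47 in poly IgG. Poly replicate 1 stood far above the other libraries there. The second, on the plus strand at chr1:109664092-109664097, had 65 and 3 events in mono, 14 and 152 in poly, 38 in mono IgG and 12 in poly IgG. Here poly replicate 2 was the high library, and 85.04% of the events lay at 1 nucleotide. The third, on the plus strand at chr8:72898691-72898692, had 62 and 10 events in mono, 17 and 86 in poly, 47 in mono IgG and 32 in poly IgG. Its events lay almost wholly (98.9%) at 1 nucleotide. The fifth, on the plus strand at chr2:128913310-128913317, was the exception in direction and in spread. It had 26 and 55 events in mono, 2 and 21 in poly, none in mono IgG and 7 in poly IgG, and its most frequent nucleotide held 26.9% of the events. The eighth, on the minus strand at chr2:35601022-35601023, was the only cluster of the 12 with more than 2 iCLIP events. It had 11 and 1 events in mono, 66 and 9 in poly, and 14 events over the 19 iCLIP libraries.

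The remaining 7 held 54 to 104 IP events each. They lay at chr15:83873537-83873538 (minus), chr2:28190197 (plus), chr12:63688082-63688086 (plus), chr8:82003456 (minus), chr6:87070163-87070164 (plus), chrX:57400670 (minus) and chr13:54432958-54432959 (minus). Poly replicate 2 had the highest CPM of the 4 IP libraries in 9 of the 12 clusters, poly replicate 1 in 2 and mono replicate 2 in 1. Both poly values were above both mono values in 3 of the 12 clusters, beside 3.93% of all 687 clusters with at least 10 IP events. The replicates of a fraction thus differed strongly: mono replicate 1 had 390 events in the 12 clusters (0.742% of its events) and mono replicate 2 had 99 (0.309%), and poly replicates 1 and 2 had 360 (1.56%) and 646 (3.52%). In the mono IgG library the 12 clusters held 184 events, 15.96% of its total with a 95% Clopper-Pearson interval of 13.9% to 18.2%. In the poly IgG library they held 162 events (1.45%, interval 1.24% to 1.69%). In CPM the mono IgG library was above every IP library in 9 of the 12 clusters. What share of the IP signal in these clusters is background was not tested. The IgG libraries are labelled anti-EGFP, so their role as a control is unsettled.

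The same 12 clusters were nearly empty in iCLIP. None of the 3 WT libraries had an event in any of them. Since these libraries entered the peak list behind the selection, this is fixed in part by the rule. A count of 0 allows a share of up to 0.00135% of WT replicate 2, 0.000273% of replicate 3 and 7.59e-05% of replicate 4 (3 events of the total, counting error only). Over all 19 iCLIP libraries the 12 clusters held 18 events, and 8 of the 12 had none. The mutZn libraries had 2 events each in the 12 clusters among 11782376 and 6436730. D27aa replicates 1 and 2 had 1 and 7 events among 376870 and 388768. The WT noUV library had 2 among 89070, and anti-SRSF7 GFP_OE replicate 3 had 4 among 126841. Intervals and limits of this kind cover counting error only, since cDNAs of 1 library are not independent draws where amplification is uneven.

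**Figure D2:**
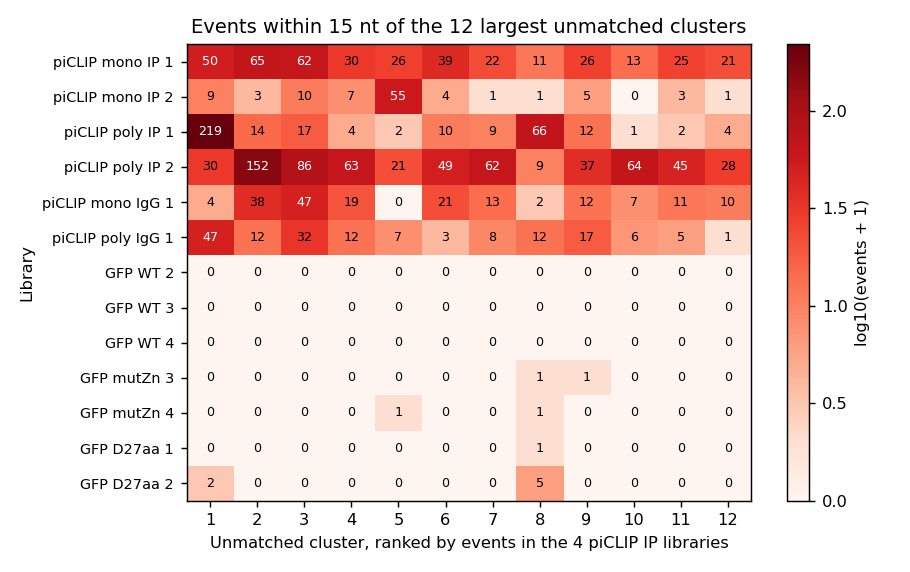
Crosslink events within 15 nt of the 12 unmatched clusters with the most IP events (horizontal axis, by rank) in each of 13 libraries (vertical axis), with the number printed in each cell and colour giving log10(events + 1). The 6 piCLIP libraries hold nearly all events, the high library changes from cluster to cluster, and the 3 WT iCLIP libraries are at 0 throughout.

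Where unmatched nucleotides were dense, they took another form. The 6 windows of 5000 nt with the most of them held 26 to 42 each. The densest, on the plus strand of chromosome 12 at 20380001-20385000, held 42 unmatched nucleotides and 5 matched ones. The IP events there numbered 38 and 21 in mono and 11 and 4 in poly, and the 3 WT libraries together had 22. The window on the minus strand of chromosome 6 at 88515001-88520000 held 36 unmatched nucleotides within 1643 nt, with 45 and 12 events in mono, 15 and 3 in poly and 9 in WT. The window on the plus strand of chromosome 7 at 8525001-8530000 held 31 unmatched nucleotides within 524 nt. It had 26 and 16 events in mono and 8 and 3 in poly, and no event in any IgG library or in any of the 19 iCLIP libraries. It was the only 1 of the 6 windows without a WT event or a WT peak nucleotide.

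The window on the minus strand of chromosome 5 at 5775001-5780000 held 30 unmatched nucleotides, with 34 and 23 events in mono and 5 and 4 in poly. The window on the minus strand of chromosome 19 at 5800001-5805000 stood at the opposite end. It held 30 unmatched and 41 matched nucleotides, 501 WT peak nucleotides and 16086 WT events, so its unmatched nucleotides lie among many WT peaks. The sixth window, on the plus strand of chromosome 12 at 115515001-115520000, held 26 unmatched and 21 matched nucleotides. In CPM the fractions overlapped there (780 and 375 in mono, 735 and 272 in poly), as they did in the window on chromosome 6 (856 and 375 in mono, 648 and 163 in poly). In the other windows both mono values were above both poly values.

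Between fractions, the unmatched nucleotides took a larger share of peak events in poly than in mono. Of all events at piCLIP peak nucleotides, 33.7% and 29.1% lay at unmatched ones in the mono IP libraries, and 53.2% and 60.3% in the poly IP libraries. The means were 31.4% ± 3.24 (SD, n = 2) and 56.7% ± 5.02 (SD, n = 2), so poly was 25.3 percentage points higher and the groups did not overlap. A 2-sided exact permutation test gave p = 0.333, the smallest that 2 libraries against 2 can give, so this test cannot reach 0.05 here. Counting each occupied nucleotide a single time, whatever its score, lowered the difference to 12.5 points (33.6% against 46.2%). Leaving out clusters with an IgG event gave 18.4 points. Of the full difference, 0.792 points came from nucleotides at 31 to 100 nt from a WT peak and 4.41 from those at over 100 and up to 1000 nt. Nucleotides at over 1000 and up to 10000 nt gave 9.14 points, and those beyond gave 10.98. These classes hold 866, 2891, 2455 and 2313 nucleotides, so their points also depend on class size. As a share of all events of a library, unmatched nucleotides held 11.9% and 10.3% in mono and 15.2% and 27.2% in poly, while matched ones held 23.5% and 25.1% in mono and 13.4% and 18.0% in poly.

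The IgG libraries ran the other way. In mono IgG, 275 of the 369 peak events lay at unmatched nucleotides (74.5%, 95% Clopper-Pearson interval 69.8% to 78.9%), and in poly IgG 471 of 2489 did (18.9%, interval 17.4% to 20.5%). These intervals cover counting error only. With each occupied nucleotide counted a single time, the shares were 45.7% in mono IgG and 22.8% in poly IgG. In the iCLIP libraries the share of peak events was between 0.934% and 4.76%. Since the WT iCLIP libraries entered the peak list behind the selection, their low share is fixed in part by the rule.

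**Figure D3:**
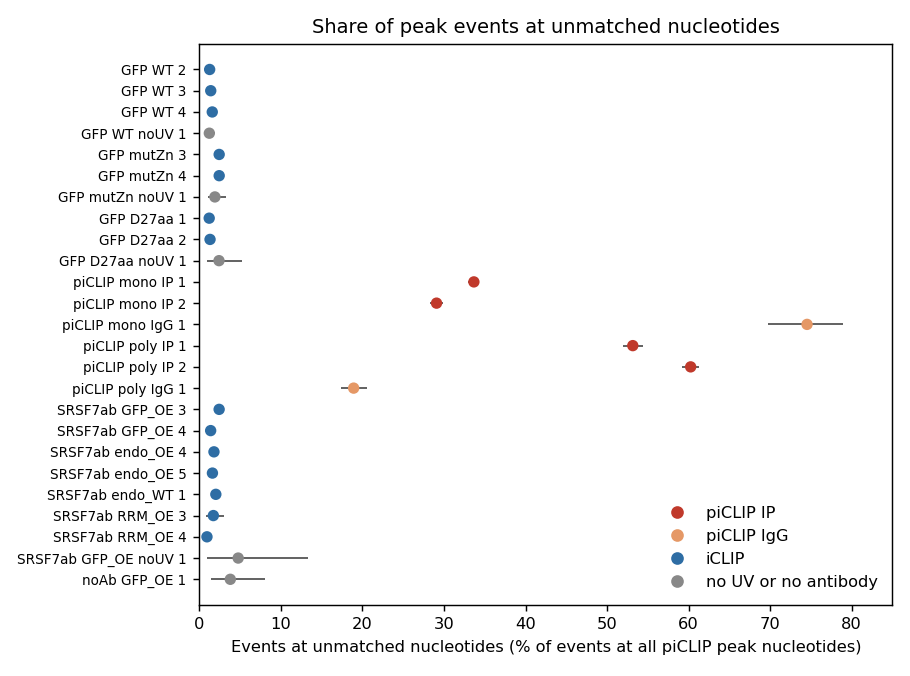
Share of the events at all piCLIP peak nucleotides that lay at unmatched ones (horizontal axis, percent) in each of the 25 libraries (vertical axis), with 95% Clopper-Pearson intervals. The poly IP libraries (53.2% and 60.3%) lie above the mono IP libraries (33.7% and 29.1%), mono IgG is the highest at 74.5%, and all iCLIP libraries lie below 5%.

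No single cluster passed the test by fraction. Of the 687 clusters with at least 10 IP events, limma on log2(CPM + pseudocount) called none at an adjusted p (Benjamini-Hochberg) of 0.05, so 0% of all clusters tested and none of the 136 unmatched ones; limma-voom also called none, with 4 at an unadjusted p of 0.05. At an unadjusted p of 0.05 limma passed 18 clusters (2.62%), 9 of them unmatched. Of these, 6 were higher in poly (background 0.873% of all 687) and 3 lower (background 1.75%). The 6 were the only clusters higher in poly at this p, so they make up their own background. Most of the 9 reached the minimum of 10 events through the fraction where they were high. Their difference is therefore set in part by the filter. In simulated data with these library sizes, the fit recovered 17.9% of 4-fold, 35.8% of 8-fold and 65.2% of 16-fold changes. Smaller changes of single clusters were thus mostly not detectable even there. The simulation gave every cluster the same spread between replicates, which was not estimated from these libraries. Recovery can be lower for clusters whose replicates differ strongly, such as the second largest unmatched one (14 and 152 events in poly). The largest cluster, on chromosome 11 at 62054000, had a log2 fold change (poly over mono) of 2.84 ± 1.35 (SE) and a limma adjusted p of 0.778.

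The median log2 fold change of poly over mono was 0.10 for the 136 unmatched clusters and -0.92 for the 523 matched ones, beside -0.80 for all 687. Values above 0 were found for 72 of the 136 (background 23.3%) and 83 of the 523. Narrow and broad clusters differed here: 42 of the 49 were above 0, with a median of 1.75, against 18 of the 71 broad ones, with a median of -0.82. The division into narrow and broad used the same libraries, so this contrast is not independent of it. Both poly libraries were above both mono libraries in 11 of 49 narrow and 2 of 71 broad unmatched clusters (background 3.93%). The reverse was found in 2 narrow and 26 broad ones (background 30.4%). With each position counted a single time, the medians moved together, at -0.47 for 56 unmatched clusters and -0.58 for all 486 tested. Median-of-ratios scaling moved the median of all clusters from -0.80 to -0.25 and that of the unmatched ones to 0.74. The unmatched median also depended on the libraries and on the minimum number of events. It was 1.83 over 88 clusters without mono replicate 1 and -0.07 over 105 clusters without poly replicate 2, while the matched medians were -1.15 and -0.85. With no minimum beyond 1 event, the median was -0.50 for all 4899 unmatched clusters and -0.57 for the 2514 matched ones, a gap of 0.06.

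**Figure D4:**
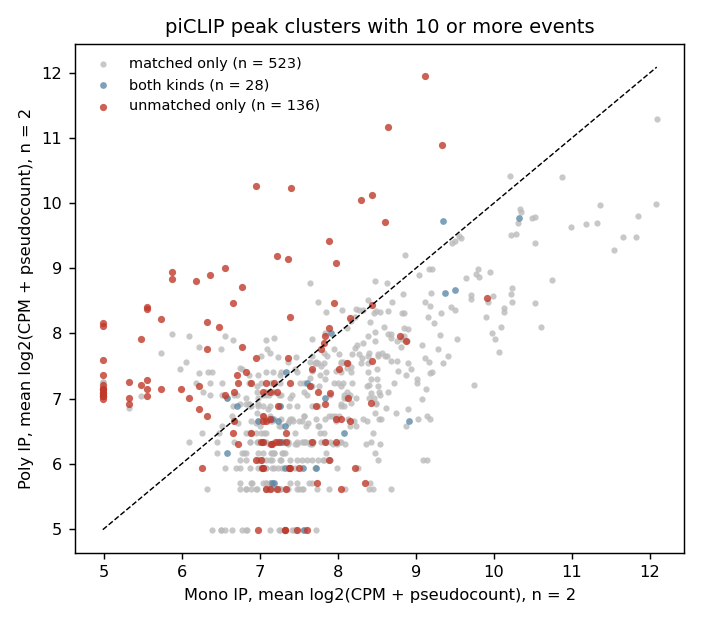
Mean log2(CPM + pseudocount) of the 2 poly IP libraries (vertical axis) against that of the 2 mono IP libraries (horizontal axis) for the 687 clusters with at least 10 events, with 523 matched, 28 mixed and 136 unmatched clusters as points and the dashed line marking equal values. Unmatched clusters lie on both sides of the line (72 of 136 above it) and matched ones mostly below it (83 of 523 above).

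Few unmatched nucleotides lay near called IgG peaks. The mono IgG list has 5 peak nucleotides and the poly IgG list 192, both called on libraries shallower than the summed IP libraries. Within 30 nt of a mono IgG peak lay 5 unmatched nucleotides (0.0587%) and 23 matched ones (0.193%). Within 30 nt of a poly IgG peak lay 94 (1.10%, interval 0.892% to 1.35%) and 300 (2.52%, interval 2.24% to 2.82%). Together, 96 unmatched nucleotides (1.13%) were near either list. Seen from the IgG lists, 3 of the 5 mono IgG and 42 of the 192 poly IgG peak nucleotides (21.9%) lay near an unmatched nucleotide. Single IgG events were more common than peaks: 577 unmatched nucleotides (6.77%) and 33.1% of the matched ones had an IgG event within 30 nt. Without any cluster that holds an IgG event, matched ones included, the unmatched share of peak events was higher in all 4 IP libraries, at 47.0% and 45.1% in mono and 59.4% and 69.3% in poly.

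Lack of a WT peak did not mean lack of WT events. At least 1 event of the 3 WT libraries lay within 30 nt of 3394 unmatched nucleotides (39.8%) and of 96.0% of the matched ones. By library these shares of unmatched nucleotides were 6.82% for WT replicate 2, 17.5% for replicate 3 and 31.3% for replicate 4, in the order of their 221746, 1099389 and 3952779 events. Without replicate 4 the joint share was 21.1%. The deepest library, mutZn replicate 3, had an event within 30 nt of 53.1% of unmatched and 95.7% of matched nucleotides, and mutZn replicate 4 of 42.8% and 93.4%. The D27aa libraries, at 376870 and 388768 events, had an event near 8.94% and 9.49% of the unmatched and 60.1% and 62.1% of the matched. The anti-SRSF7 libraries with UV had an event near 0.880% to 13.0% of the unmatched. No event within 30 nt in any of the 19 iCLIP libraries was found for 2468 unmatched nucleotides (28.95%) and 72 matched ones (0.604%). No WT event lay within 5000 nt of 891 unmatched nucleotides (10.5%) and of 130 matched ones (1.09%).

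**Figure D5:**
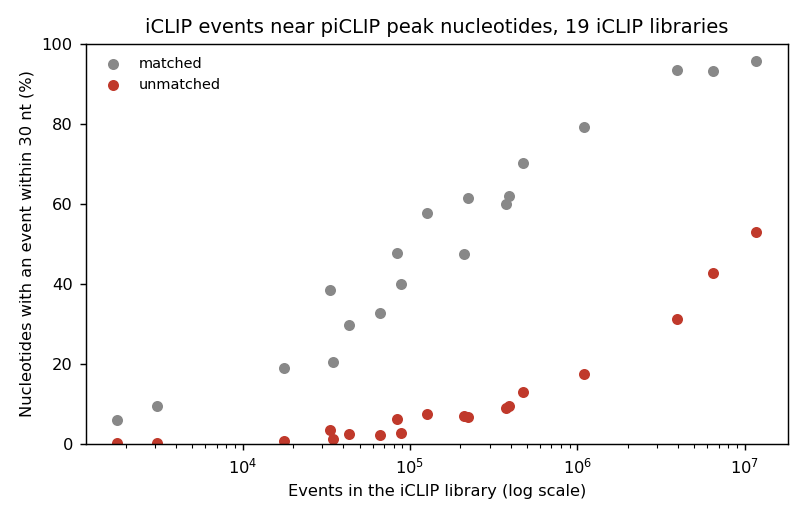
Share of piCLIP peak nucleotides with an event within 30 nt (vertical axis, percent) in each of the 19 iCLIP libraries against the total events of that library (horizontal axis, log scale), with matched nucleotides in grey and unmatched ones in red. The share rises with depth in both groups, to 53.1% of unmatched and 95.7% of matched nucleotides in the deepest library.

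Events in iCLIP were nevertheless denser at the unmatched nucleotides than in their surroundings. In the mutZn libraries, which the selection did not use directly, the unmatched nucleotides themselves held 0.203 and 0.111 events per nt. At over 100 and up to 500 nt around them the density was 0.0702 and 0.0385, a ratio of 2.89 in either library. The ratio for matched nucleotides was 4.21 in both. In the D27aa libraries the ratio was 5.54 and 6.34 for unmatched and 9.03 and 9.13 for matched nucleotides. At 6 to 30 nt from an unmatched nucleotide the mutZn density (0.0711 and 0.0398 events per nt) was already close to that of the wider surroundings. The rule bars WT peaks within 30 nt but not at over 100 nt, and a mutZn peak lay within 30 nt of 90.2% of matched nucleotides. The lower ratios of unmatched nucleotides and the density at 6 to 30 nt are therefore set in part by the rule. These densities are sums over all nucleotides of a kind, so a few strong loci can carry them. Counting occupied nucleotides in place of events gave 7.48% at unmatched nucleotides against 2.35% around them in mutZn replicate 3, and 4.62% against 1.53% in replicate 4.

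Peaks of the variants were found near some unmatched nucleotides. A mutZn peak lay within 30 nt of 1429 (16.8%, interval 15.98% to 17.6%) and of 90.2% of the matched nucleotides. A D27aa peak lay near 242 (2.84%, interval 2.50% to 3.21%) and near 50.03% of the matched. These lists differ in size, with 2246120 mutZn and 34759 D27aa peak nucleotides, so the shares cannot be ranked between variants. Either list was near 1528 (17.9%), which left 6997 unmatched nucleotides with no called peak of WT, mutZn or D27aa. Peaks of the no-UV libraries lay near 21 unmatched nucleotides (0.246%) and 2787 matched ones (23.4%). Matched nucleotides were chosen for a nearby iCLIP peak. These contrasts between the 2 kinds, no-UV peaks included, can thus be set in part by the rule.

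The difference between mutZn and D27aa was tested at 4 unmatched clusters, all within 6 kb on the minus strand of chromosome 19, the only ones that reached a mean CPM equal to 10 events in the shallowest library. This minimum was set after the data had been seen, and a looser one changed both the number and the direction of the calls. With at least 10 events over the 4 libraries, 216 unmatched clusters were tested and 134 called, 117 of them higher in mutZn and 17 lower. Over all clusters at that setting, 906 of 1709 were called, 572 higher and 334 lower. However, in simulated data at that setting 273 of 349 calls were false. With no minimum beyond 1 event, 2620 unmatched clusters were tested and 436 called, 393 of them higher in mutZn and 43 lower. Over all clusters there, 1358 of 5058 were called, 991 higher and 367 lower. The cluster at 5801286-5801304 held 41.2 and 40.2 CPM in mutZn replicates 3 and 4, and 122 and 108 CPM in D27aa replicates 1 and 2. The WT libraries 2, 3 and 4 held 198, 81.9 and 68.8 CPM there. The cluster at 5802192-5802205 held 15.8 and 20.7 CPM in mutZn and 39.8 and 66.9 CPM in D27aa. Its mutZn mean (18.2 CPM) lay below the minimum, which it passed only through its D27aa mean (53.3 CPM). Its call as lower in mutZn is therefore set in part by the filter. The cluster at 5796278-5796294 held 81.4 and 91.7 CPM in mutZn and 39.8 and 48.9 CPM in D27aa. Both mutZn values were below both D27aa values in 2 of the 4 clusters (background 76.4% of the 165 clusters tested) and above them in 1 (background 15.8%). At 5796325 the values were close, at 73.2 and 69.8 CPM in mutZn and 79.6 and 74.6 CPM in D27aa. Replicates of a variant lay very close together. Matched nucleotides held 5895 ± 13.2 CPM (SD, n = 2) in mutZn and 28663 ± 27.6 CPM (SD, n = 2) in D27aa. In WT they held 17432 ± 11054 CPM (SD, n = 3). How independent the replicates of a variant are was not tested, so the p-values below measure only the spread between these libraries.

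By limma, the log2 fold changes (mutZn over D27aa) were -1.49 ± 0.18 (SE, adjusted p = 4.3e-04) at 5801286, -1.50 ± 0.36 (adjusted p = 0.00795) at 5802192, 0.97 ± 0.21 (adjusted p = 0.00498) at 5796278 and -0.11 ± 0.17 (adjusted p = 0.568) at 5796325. Of the 4 unmatched clusters 3 were thus called (background 81.2%): 2 were called lower in mutZn (background 68.5% of the 165 clusters tested) and 1 higher (background 12.7%). Of the 2 called lower, the cluster at 5802192 passed the minimum only through D27aa. The median over all 165 was -1.75, and all 4 unmatched clusters lay above it. Median-of-ratios scaling moved that median to 0.03 and turned the 2 negative calls to 0.29 (adjusted p = 0.218) and 0.27 (adjusted p = 0.482), so that the direction of these changes depends on the scaling. The call at 5796278 was lost without mutZn replicate 4 (0.88, adjusted p = 0.0574) and with limma-voom (0.91, adjusted p = 0.179).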

How the data were processed

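Each deposited library file holds a signed score for each crosslinked nucleotide of mm9: per the file headers, the size is the number of cDNAs and the sign the strand (annotation Ensembl 59). Peaks were called by the authors with 100 permutations, a 15 nt neighbourhood and a false discovery rate of 0.05, per the file headers, on summed IP libraries for piCLIP, and on events in transcribed regions for the IgG lists. CASAVA 1.4 is named in the submitters' processing notes. The aligner is not given in the sources used here. The unmatched nucleotides, lists and windows were chosen with earlier results of these data known. An mm9 genome was not used here, so no gene, exon or sequence is named and the P19 markers were not checked.

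Groups follow the titles. Events were summed in clusters (gap 30 nt) with up to 15 nt on either side, scaled to CPM, and tested on the log2 scale with limma 3.58.1 (R 4.3.3), with a pseudocount equal to 1 event at the mean library total and Benjamini-Hochberg adjustment over all clusters. Poly against mono used clusters with at least 10 events. For mutZn against D27aa this minimum gave 273 false calls of 349 in simulated data, and it was replaced, after seeing the data, by a mean CPM equal to 10 events in the shallowest library. On simulated data with the final settings no false call was made (0 of 79 calls for poly against mono, 0 of 45 for mutZn against D27aa). All simulated data used the same spread between replicates for every cluster. It was not estimated from these libraries, so the rate of false calls in the real data can differ. Tables were made with Python 3.11.15, pandas 2.3.3 and scipy 1.17.1. The rule for named loci took the 12 unmatched clusters with the most IP events, the 6 windows with the most unmatched nucleotides, and up to 5 called unmatched clusters in each direction. Coordinates are 1-based. Alternatives covered the matching distance, peak score, pseudocount, filters, scaling, joining gap, limma-voom and leaving out each library.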

Additional observations from a re-analysis of the deposited data

Results flagged for a closer look

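The unmatched share of peak events moved in opposite directions in the IgG and IP libraries. From mono to poly it was 55.6 percentage points lower in IgG (a difference of -55.6 points, from 74.5% to 18.9%), whereas it was 25.3 points higher in the IP libraries. Both mono IP libraries (33.7% and 29.1%) lay below both poly IP libraries. The difference between IgG and IP was not tested, since there is 1 IgG library for each fraction, and the mono IgG value rests on 369 peak events. With each occupied nucleotide counted a single time, the IgG shares were closer, at 45.7% in mono and 22.8% in poly. The IP difference was then 12.5 points.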

How the results depend on the processing

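The number of unmatched nucleotides (8525) became 13753 when only a WT peak at the same nucleotide counted and 13539 when WT peaks needed a score of at least 5. It was 397 among piCLIP peaks with a score of at least 5 and, in alternatives added after seeing the data, 4233 with scores above 1 and 5609 when nucleotides with no WT event within 30 nt were taken in place of the peak list. The poly minus mono difference in the share of peak events stayed positive in all 16 alternatives (12.5 to 40.5 points; 21.8 to 28.9 when a library was left out). With the replicate block it was 25.3 points (19.5 and 31.2 within pairs, exact p = 0.5). Same-numbered libraries deviated together over all clusters (r = 0.399 across 687 clusters that are not independent, 0.519 for the 523 matched and 0.0894 for the 136 unmatched ones), but 2 pairs do not show that the numbers pair them. With the replicate block limma called 1 cluster for poly against mono, the unmatched one on chromosome 11 at 62054000 (limma adjusted p = 0.0358), and with each library left out it called 0. The share with a WT event within 30 nt (39.8%) was 3.93% at the nucleotide itself, 57.7% within 100 nt, and 21.1% to 38.0% when a WT library was left out. The share near an IgG peak (1.13%) was 0.364% at the nucleotide itself. The 134 calls for mutZn against D27aa became 1358 with no filter beyond 1 event, 906 with at least 10 events over the libraries (added after seeing the data), 84 with at least 20 events and 52 with each position counted a single time, and 122 to 150 when a library was left out, where the lone library of a group is assumed to vary like the others. Median-of-ratios scaling reversed 3 of the 4 unmatched clusters on chromosome 19, to 0.29 at 5801286, 0.27 at 5802192 and 1.67 at 5796325. The number of libraries and 18357 to 52553 events per IP library limit what can be seen.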

Other observations

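Of the 6 unmatched clusters with the most peak nucleotides, 3 differ in how their events fall on the libraries. They were picked after their values had been seen, and no test was made of them. On the minus strand of chromosome 6 at 88518949-88519010, 26 peak nucleotides held 39 and 4 events in mono and 9 and 1 in poly, with none in either IgG library and none in the WT or mutZn libraries. On the minus strand of chromosome 5 at 110463314-110463364, 20 peak nucleotides held 19 and 4 events in mono and 14 and 3 in poly, with 1 in mono IgG and 4 in poly IgG. In CPM the mono IgG value (867) was above all 4 IP libraries (361.5, 125, 605 and 163), though it rests on 1 event. On the minus strand of chromosome 6 at 95050264-95050293, 18 peak nucleotides held 15 and 21 events in mono and 1 and 13 in poly. It had 30 events over the 19 iCLIP libraries, 8 and 5 of them in anti-SRSF7 GFP_OE replicates 3 and 4.

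On the plus strand of chromosome 4 at 43764567-43764589, 14 peak nucleotides held 12 and 12 events in mono and 0 and 1 in poly, with no event in the IgG or iCLIP libraries. It was picked among clusters with an unadjusted p under 0.05, and its limma adjusted p was 0.778. A cluster of 3 peak nucleotides on the plus strand of chromosome 13 at 73030145-73030147 went the other way, with none in either mono IP library, 12 and 2 events in poly, 1 in mono IgG and 2 in poly IgG. It too had an unadjusted p under 0.05 and a limma adjusted p of 0.778. Both clusters reached the minimum of 10 events through the fraction where they were high, so these contrasts are set in part by the filter.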
